A study of Rattus norvegicus with 20 samples.

Results

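The genes described are the cyclins, the cyclin-dependent kinases (CDKs), their inhibitors, the MCM replicative helicase and related genes of the cell division cycle, in the foetal rat testis after maternal dosing with plasticizers. Probes were taken by the gene name printed on the array, from Ccna1 to Ccnl1 among cyclins, Cdk and Cdkn names, Mcm names, the Cdc2, Cdc6, Cdc7, Cdc20 and Cdc25 names, Top2a, Pcna, and the Aurk, Plk and Bub1 names, which gave 95 probes of 67 gene names among 41012 probes of 35737 names in all. The tested groups were litters whose dams received di(2-ethylhexyl) phthalate (DEHP), its monoester mono(2-ethylhexyl) phthalate (MEHP), tris(2-ethylhexyl) trimellitate (TOTM) or a compound labelled EHO, each at 500 mg/kg by gavage. The control litters received corn oil. Dosing ran daily over gestation days 12 to 19 in Han Wistar rats, and each of 4 arrays per group carried RNA pooled from the testes of at least 3 male pups of 1 litter. The doses were equal by mass, not by mole. The arrays were 1-colour Agilent rat arrays, and each level below is the log2 processed signal minus the 75th percentile of its own array, so that 1 unit is a doubling. Levels of different probes are not comparable with each other. A pool mixes all cell types of the testis, so fewer cells of a type and less RNA per cell cannot be told apart.

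As background, cyclins D and E with their kinases carry a cell through G1, cyclin A with Cdk2 acts in S phase, and cyclin B with Cdk1 starts mitosis. The Cip/Kip proteins p21 (Cdkn1a), p27 (Cdkn1b) and p57 (Cdkn1c) and the INK4 proteins (Cdkn2a to Cdkn2d) hold these kinases back. Cdc6 loads the MCM helicase onto replication origins and Cdc7 fires it, while the Plk1 and Aurora kinases and the Bub1 checkpoint proteins govern chromosome segregation. In the foetal testis near this age Sertoli cells divide, while gonocytes have largely stopped dividing. Of the 67 names, 7 matched by spelling alone, among them Cdk105, whose accession belongs to Nsa2 of ribosome biogenesis, and Cdc73, a subunit of the Paf1 transcription complex. The names Cdc2a, Cdc2l1, Cdc2l5 and Cdc2l6 stand for Cdk1, Cdk11b, Cdk13 and Cdk19.

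RefSeq promoters of build GRCr8, 250 bases before to 50 after each start, matched 54 of the 67 genes. Both strands were searched for the E2F motif (TTTCCCGC, TTTCGCGC, TTTGCCGC or TTTGGCGC), the cell cycle homology region or CHR (TTTGAA or TTCGAA) and CCAAT, and matches can overlap. The E2F motif was present in 5 of 8 replication genes (62.5%), against 2.37% of 27457 genes with a promoter. The CHR was present in 5 of 10 genes of mitotic kinases, checkpoint and anaphase promotion (50%), against 21.0% of all genes. Below are the promoters of Mcm5, Top2a and Ccnb2, which show these motifs, and of Cdkn1b, an inhibitor called higher with EHO on both probes. Capitals mark every motif match, a match describes letters only, and binding was not measured.
Mcm5 chr19:13488563-13488862 plus strand: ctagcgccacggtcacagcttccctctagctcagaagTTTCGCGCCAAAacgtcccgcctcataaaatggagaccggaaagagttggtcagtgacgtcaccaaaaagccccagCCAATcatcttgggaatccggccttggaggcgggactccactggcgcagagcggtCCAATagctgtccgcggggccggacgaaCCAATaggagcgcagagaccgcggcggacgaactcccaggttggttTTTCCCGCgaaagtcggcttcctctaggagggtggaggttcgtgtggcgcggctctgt
Top2a chr10:84473044-84473343 minus strand: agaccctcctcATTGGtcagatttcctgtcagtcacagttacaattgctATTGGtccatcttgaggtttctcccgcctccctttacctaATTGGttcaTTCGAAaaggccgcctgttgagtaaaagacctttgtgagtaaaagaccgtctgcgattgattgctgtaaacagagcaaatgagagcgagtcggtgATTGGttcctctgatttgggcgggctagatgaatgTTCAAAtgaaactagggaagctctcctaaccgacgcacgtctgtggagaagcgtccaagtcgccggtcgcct
Ccnb2 chr8:79981609-79981908 minus strand: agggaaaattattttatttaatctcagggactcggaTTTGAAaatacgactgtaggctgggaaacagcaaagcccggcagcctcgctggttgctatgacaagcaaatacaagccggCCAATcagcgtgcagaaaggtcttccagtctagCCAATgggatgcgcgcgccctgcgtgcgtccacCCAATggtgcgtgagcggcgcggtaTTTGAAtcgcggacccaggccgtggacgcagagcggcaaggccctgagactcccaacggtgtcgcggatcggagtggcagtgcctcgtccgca
Cdkn1b chr4:169491254-169491553 plus strand: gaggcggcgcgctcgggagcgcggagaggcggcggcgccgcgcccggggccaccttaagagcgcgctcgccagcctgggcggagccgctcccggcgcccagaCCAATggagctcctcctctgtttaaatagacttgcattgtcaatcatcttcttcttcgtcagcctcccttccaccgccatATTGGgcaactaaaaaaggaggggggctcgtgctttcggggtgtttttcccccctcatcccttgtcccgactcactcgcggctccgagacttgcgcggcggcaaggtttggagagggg

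Several arrays stood apart before any comparison. MEHP replicates 1 and 2 differed by 0.88 times the spot noise, against a median of 2.17 times for 2 arrays of the same group, so they were counted as 1 sample and MEHP has n = 3. EHO replicates 1 and 2 had 46.1% and 50.4% of spots well above background, EHO replicates 3 and 4 had 62.5% and 63.5%, and the other 16 arrays had 63.9% to 79.8%. Every group had a slide and a scan of its own, and the effect of slide cannot be told apart from that of compound. On each control array 425 to 438 bright probes were marked as outliers and left out, against 0 to 8 on the other arrays. Sertoli, Leydig and gonocyte markers were present: 10 of 12, 9 of 11 and 7 of 9 probes were well above background on all 20 arrays, against 0 of 4 adrenal cortex probes, of which Cyp11b1 was well above background on 19 arrays and Cyp11b2 on 18.

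Control replicate 2 and MEHP replicate 3 were alike over the whole array, not over these genes alone. Over 17130 probes well above background and unmarked on all arrays, they differed by 1.71 times the spot noise. Control replicate 2 differed from the other control arrays by 3.31 to 3.90 times, and MEHP replicate 3 from the other MEHP arrays by 3.45 to 4.12 times. On member probes, the deviations of these 2 arrays from the other arrays of their own groups correlated at r = 0.77. The 87 probes used are not independent replicates. On 22 probes both lay outside the range of the other 18 arrays, above it on 16 and below it on 6. Mcm5, a helicase subunit, was at -1.23 on control replicate 2 and -1.27 on MEHP replicate 3, against -0.32 to 0.70 elsewhere. Both Mcm2 probes and the Mcm7 probe were also below all other arrays on this pair. Pcna A_44_P242756, the polymerase clamp, was at 2.10 and 2.04 on the same 2 arrays and at 1.06 to 1.67 on the others. Ccng2, a cyclin of quiescent cells, was at 1.48 and 1.35, against -0.34 to 0.66. Different probes of 1 gene went opposite ways: Plk1 A_44_P463309 was at 2.07 and 1.96, below all others, and Plk1 A_44_P463313 at 4.12 and 4.06, above all others. Star, the Leydig cholesterol carrier, was at 3.26 on MEHP replicate 3, within the control range of 3.19 to 3.78, and at -0.06, 0.02 and 1.77 on MEHP replicates 1, 2 and 4. What this pair of arrays shares was not tested. Values without it, or without control replicate 2, are given for Cdkn1c, Cdc25b, Cdc25c, Aurkb, Ccng2 and the helicase subunits.

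**Figure D1:**
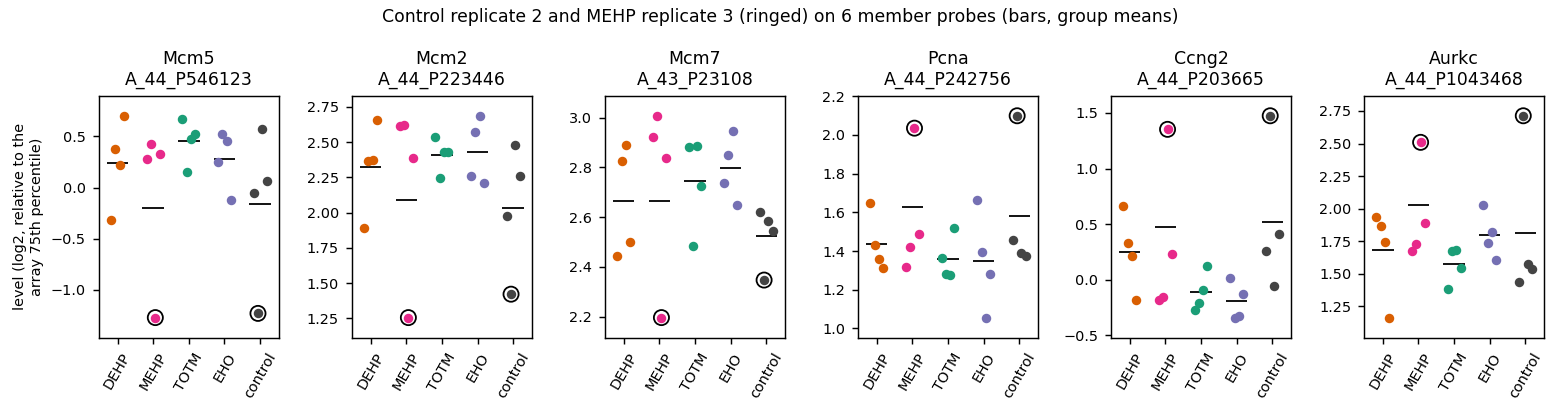
Level of 6 member probes (log2, relative to the array's 75th percentile) on each array of the DEHP, MEHP, TOTM, EHO and control groups; points are replicates 1 to 4 from left and bars are group means, with MEHP replicates 1 and 2 averaged first. The ringed points, MEHP replicate 3 and control replicate 2, lie below all other arrays for Mcm5, Mcm2 and Mcm7 and above all others for Pcna, Ccng2 and Aurkc.

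Most members were expressed at levels that could be measured. Of the 95 probes, 84 were well above background on all 20 arrays and none was saturated. A filter for probes well above background throughout 1 group or more kept 90 probes of 64 names. Probes not kept were Ccne2 A_42_P836777, Cdc25a, Cdc2l1 A_44_P221980, Cdk6 and Cdkn1a A_44_P515275, of which Cdc25a and this Cdkn1a probe were well above background on no array. Cdkn1c A_44_P223978 and Cdk105 A_43_P13270 were marked as outliers on all 4 control arrays, which left 88 probes for tests against control. No probe named Aurka, Mki67, Mcm3 or Cdc45 met the rule. The 4 comparisons with control share the same control arrays.

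With DEHP the division genes differed little from control, and the inhibitor Cdkn1c had the largest differences. None of the 88 member probes was called by limma at an adjusted p under 0.05, as was 0% of the 27769 probes tested. An unadjusted p under 0.05 was found for 3 members. The arrays did not overlap on 1 member, Ccna2 A_43_P15962 (-0.29 ± 0.14), and on 4.72% of all probes. The median difference of the members was -0.06, against -0.12 for all probes. The intervals of 65 of the 88 members lay within 1.5-fold of control and those of 82 within 2-fold.

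Cdkn1c encodes p57, an imprinted inhibitor that in many tissues accompanies exit from division. Its probe A_44_P374618 (rn4 chromosome 1, 203836064 to 203836123) was at 4.80, 5.51, 4.69 and 4.27 on the DEHP arrays, against 5.64, 5.13, 5.93 and 5.37 on the control arrays. DEHP replicate 2 lay inside the control range and the other 3 DEHP arrays below it. The difference was -0.70 ± 0.23 (SE), with a limma adjusted p of 0.725. Probe A_44_P374620 differed by -0.57 ± 0.23 and probe A_42_P799390 by -0.58 ± 0.28, each with an adjusted p of 0.96. Control replicate 3 has no value on A_44_P374620, where its spot was marked as an outlier, and with that spot kept the DEHP difference was -0.26 ± 0.25 (adjusted p = 0.9999). On all 3 probes DEHP replicate 2 was the highest DEHP array. Without it the 3 differences were -0.93, -0.81 and -0.82, still not called.

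With MEHP Cdkn1c again had the smallest p-values of the list. A_44_P374618 was at 4.38, 4.37, 4.80 and 4.49 on the MEHP arrays, against 5.13 to 5.93 on the control arrays, and the groups did not overlap. The mean was 4.55 ± 0.22 with MEHP (SD, n = 3) and 5.52 ± 0.35 in control (SD, n = 4), a level 1.95-fold higher in control. The difference of -0.97 ± 0.24 had a limma adjusted p of 0.104, which misses the threshold. Probes A_44_P374620 and A_42_P799390 differed by -0.71 ± 0.25 and -0.78 ± 0.31, with adjusted p of 0.451 and 0.583. Every MEHP array was below every control array on A_42_P799390, and below the 3 control arrays with a value on A_44_P374620. With the outlier spot of control replicate 3 kept, at 4.56, that array was below all MEHP arrays (4.65 to 5.09), and the difference was -0.40 ± 0.27 (adjusted p = 0.979). Of 37 other ways to process or subset the arrays, 9 brought A_44_P374618 past the threshold, among them the fit without EHO replicates 1 and 2 (adjusted p = 0.0434) and the fit without DEHP replicate 2 (0.0349), where its difference stayed -0.97. Another was quantile normalization with outlier spots kept, with -1.06 and an adjusted p of 0.0318. Leaving out control replicate 2 and MEHP replicate 3 gave -1.22 and an adjusted p of 0.0861.

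Foetal Leydig markers were low with DEHP, MEHP and EHO. The mean level of 9 complete Leydig probes was 1.10 to 1.42 over the DEHP arrays, 0.15 to 2.02 over MEHP, 1.95 to 2.20 over TOTM, 1.35 to 1.84 over EHO and 2.04 to 2.40 over control. Of 10 tested Leydig probes, 9 were below control with DEHP and 10 with MEHP, and 1 was called with MEHP, the Scarb1 probe A_44_P379244 (-1.20, adjusted p = 0.0465). With EHO, 9 of 10 Leydig probes were below control and 2 were called lower (20%, against 28.7% of all probes). The median Leydig difference was -0.895 with DEHP, -0.951 with MEHP and -0.531 with EHO. All tested Cdkn1c probes were above control with EHO. The adrenal cortex marker Cyp11b1 was at -2.63 to -1.62 over the DEHP arrays and -3.56 to 0.49 over MEHP, against -0.51 to 0.64 over control, by -2.23 and -1.80, neither called. Both tested adrenal probes were below control with DEHP, MEHP and EHO. The part of the Leydig cells, or of adrenal tissue, in the Cdkn1c values was not tested.

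None of the other Cip/Kip probes was called with the phthalates. Cdkn1b A_44_P508264 was at -0.03, -0.53, -0.28 and -0.30 with DEHP and at -0.07, 0.05, -0.09 and -0.16 with MEHP, against -0.23, -0.09, -0.03 and -0.39 in control, so the groups overlapped. Cdkn1b A_43_P11268 was at 1.11, 1.20, 0.28 and 0.99 with MEHP, against 0.59, 0.29, 0.82 and 0.69 in control, so 3 of 4 MEHP arrays lay above all control arrays and MEHP replicate 3 at their low end. Its difference was 0.21 with MEHP and -0.03 with DEHP, and the authors' deposited table lists it with a signed fold of 1.6 for MEHP. Cdkn1a A_44_P914438 (p21) was at -1.21 to -0.92 with DEHP and -1.06 to -1.01 with MEHP, against -1.49 to -0.99 in control. The authors' deposited table lists Cdkn1c A_44_P223978 with a signed fold of -1.63 for DEHP, -2.3 for MEHP and -1.65 for TOTM. On that probe all 4 control spots carry outlier marks. With them kept, the DEHP arrays differed from control by -0.75 ± 0.31 and the MEHP arrays by -0.66 ± 0.33. The TOTM arrays differed by -0.79 ± 0.31 and the EHO arrays by 0.09 ± 0.31, and none was called. All 4 TOTM arrays (6.04 to 6.42) then lay below all 4 control arrays (6.72 to 7.24). MEHP replicate 3 was at 7.21, inside the control range, and MEHP replicates 1, 2 and 4 were at 5.77 to 6.05. DEHP replicate 2, at 7.01, was also inside it.

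**Figure D2:**
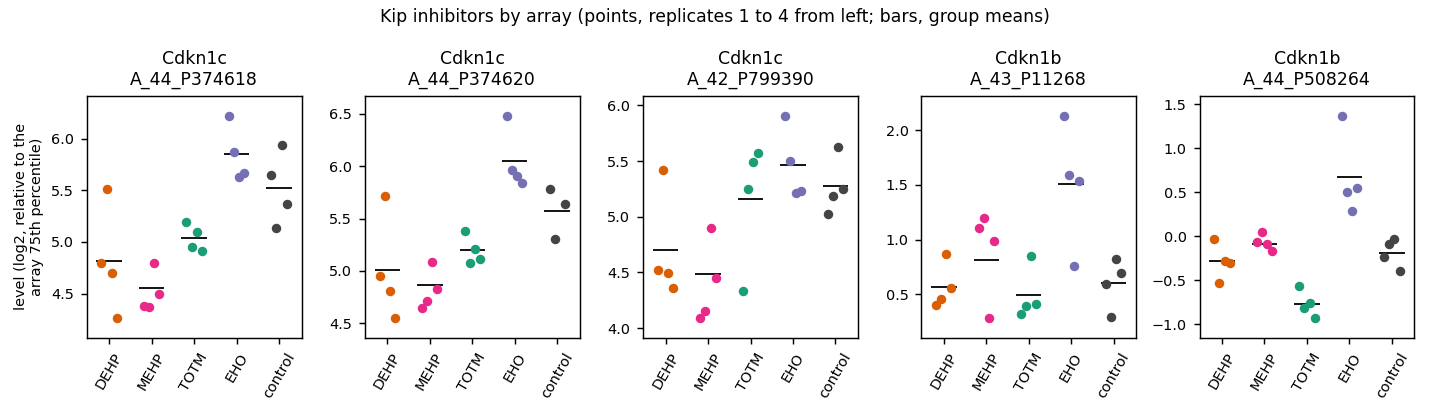
Level (log2, relative to the array's 75th percentile) of 3 Cdkn1c probes and 2 Cdkn1b probes on each array of the DEHP, MEHP, TOTM, EHO and control groups; points are replicates 1 to 4 from left and bars are group means, with MEHP replicates 1 and 2 averaged first and no value for control replicate 3 on A_44_P374620. The MEHP arrays lie below all plotted control arrays on each of the 3 plotted Cdkn1c probes. DEHP replicate 2 stands above the other DEHP arrays there, and EHO is highest on both Cdkn1b probes.

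Among all 88 tested members, none was called with MEHP, where 0.663% of all probes were called, 0.583% higher and 0.0792% lower. An unadjusted p under 0.05 was found for 5 members. The members' median difference was -0.05, against -0.13 for all probes. The groups did not overlap on 9 members, 2 higher and 7 lower with MEHP (10.2%), close to the 10.6% of all probes. Of the 7 lower ones 3 were the Cdkn1c probes, A_44_P374620 among them only with the control replicate 3 spot left out. Ccnb3, a cyclin of meiosis in mammals, was at -1.10, -0.95, -0.73 and -0.69 with MEHP, against 0.41, -0.68, 0.00 and -0.16 in control (-0.70 ± 0.31, adjusted p = 0.744). Plk4, the kinase of centriole duplication, was at -0.97, -0.94, -0.63 and -0.99 with MEHP, against -1.20, -1.10, -1.51 and -1.44 (0.45 ± 0.22, adjusted p = 0.828).

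With TOTM no member was called among 88, where 0.202% of all probes were called (0.0036% higher and 0.198% lower), although 14 members had an unadjusted p under 0.05. The members' median was -0.11, against -0.12 for all probes. On 9 members the groups did not overlap (10.2%, against 8.07% of all probes), 2 higher and 7 lower with TOTM. The smallest p belonged to Cdc2l6 A_44_P929695 (Cdk19, a kinase of the Mediator complex). It was at 1.16, 1.02, 1.41 and 0.91 with TOTM, against 1.48, 1.65, 1.71 and 1.44 in control. The difference was -0.44 ± 0.12 with a limma adjusted p of 0.197. The other Cdc2l6 probe differed by -0.13 ± 0.21. Cdkn1c was below control with TOTM too, by -0.48 on A_44_P374618, -0.38 on A_44_P374620 and -0.115 on A_42_P799390, none called. With the outlier spot of control replicate 3 kept, A_44_P374620 differed by -0.065 (limma adjusted p = 0.9998).

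Cdkn1b A_44_P508264 was at -0.56, -0.82, -0.76 and -0.92 with TOTM, below every control array (-0.58 ± 0.18, adjusted p = 0.297). The second Cdkn1b probe, A_43_P11268, did not follow, at 0.32, 0.39, 0.85 and 0.41 with TOTM, against 0.59, 0.29, 0.82 and 0.69 in control. The Cdkn1b difference passed the threshold without EHO replicates 1 and 2 (adjusted p = 0.0460). Ccnd2, the D cyclin, was at 2.99, 2.46, 2.78 and 2.28 with TOTM, against 2.90, 3.30, 3.08 and 2.96 (-0.43 ± 0.15, adjusted p = 0.342). Ccna2 was below every control array on both probes with TOTM, by -0.36 and -0.27, with adjusted p of 0.426 and 0.56. Cdk105 A_44_P267309 was 0.34 ± 0.11 above control (adjusted p = 0.319), but -0.08 under quantile normalization.

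**Figure D3:**
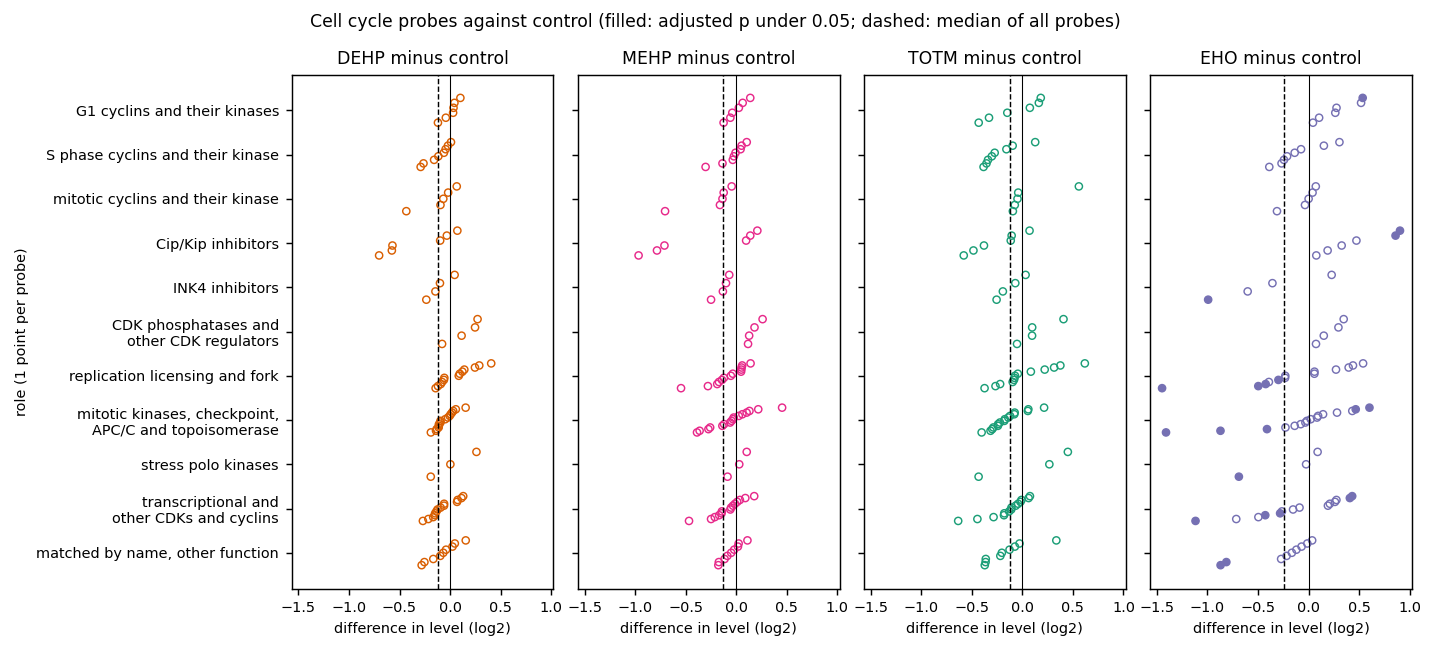
Difference in level from control (log2) of each tested member probe, by role down the page, with DEHP, MEHP, TOTM and EHO from left; filled points have a limma adjusted p under 0.05 and the dashed line is the median of all probes. Filled points occur in the EHO panel alone, and the 3 lowest Cip/Kip points of the DEHP and MEHP panels are Cdkn1c.

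None of the other genes of the cycle passed the test with DEHP, MEHP or TOTM. The intervals of 64 of the 88 tested members lay within 1.5-fold of control with MEHP, and those of 51 with TOTM. Among the larger TOTM differences were Ccng2 (-0.635, and -0.32 without control replicate 2), Ccnb3 (0.56), Plk3 A_44_P135224 (0.45) and Plk2 (-0.43). Ccne1, the E cyclin of the G1 to S step, lay between -0.30 and 0.10 over its 2 probes and the 3 compounds, and Ccne2 A_44_P272210 between -0.34 and -0.06. Cdk2, their kinase, lay between -0.38 and 0.01, and Cdk4, the partner of D cyclins, between -0.13 and 0.16. The phosphatases that switch CDKs on, Cdc25b and Cdc25c, lay between 0.10 and 0.41, and Cdkn3, a phosphatase that acts on CDKs, between 0.10 and 0.13. Without control replicate 2 and MEHP replicate 3, Cdc25c was 0.05 with DEHP, -0.01 with MEHP and -0.10 with TOTM. Cdc25b was then 0.18, 0.35 and 0.32. The helicase subunits Mcm2, Mcm6 and Mcm7 lay between -0.05 and 0.38, and between -0.05 and 0.32 without control replicate 2 and MEHP replicate 3. Mcm5 was 0.41 with DEHP, -0.03 with MEHP and 0.62 with TOTM, and without those 2 arrays 0.05, 0.15 and 0.26. Mcm4 was below control on both probes, by -0.06 and -0.12 with DEHP, -0.14 and -0.17 with MEHP and -0.37 and -0.27 with TOTM. Bub1, Cdc20 and Plk1 lay between -0.14 and 0.22.

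With EHO 21 of 88 members were called, 7 higher and 14 lower than control (23.9%), against 33.5% of all probes. By direction, 4.77% of all probes were called higher and 28.7% lower. The median difference was 0.00 for the members and -0.25 for all probes, so signs of small differences depend on the scaling. Scaling each array by its median moved the median of all probes to 0.35 and turned the split to 30 higher and 2 lower. Scaling by the percentile of the probes detected on each of the 20 arrays gave 2 higher and 33 lower, quantile normalization 4 and 27, and keeping outlier spots 13 and 7. Without EHO replicates 1 and 2 no member was called, nor with normexp background correction or with the arrays of the 2 groups alone. The count was 4 without control replicate 1 or EHO replicate 1, 5 without EHO replicate 2 and 8 without control replicate 4.

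Cdkn1b, the p27 inhibitor, was the highest member with EHO. A_44_P508264 (rn4 chromosome 4, 171845435 to 171845494) was at 1.37, 0.50, 0.28 and 0.54 with EHO, against -0.23, -0.09, -0.03 and -0.39 in control, with no overlap. The difference was 0.86 ± 0.18 with a limma adjusted p of 0.0104. A_43_P11268 was at 2.13, 1.59, 0.76 and 1.54 with EHO, against 0.59, 0.29, 0.82 and 0.69, so EHO replicate 3 fell inside the control range (0.91 ± 0.25, adjusted p = 0.0213). EHO replicate 1 was highest on both probes. Without EHO replicates 1 and 2 the differences were 0.60 and 0.55, with adjusted p of 0.0671 and 0.262. Markers of peritubular and interstitial cells were also high: 6 of 6 probes were above control with EHO, with a median of 0.42. Of these 2 were called (33.3%, against 4.77% of all probes called higher). They were Nr2f2 (0.51, limma adjusted p = 0.0441) and Lum (1.02, 0.0382), and both overlapped control. Nr2f2 was at 3.77 on EHO replicate 1 and 2.848 on EHO replicate 2, against 2.855 on control replicate 2. Lum was at -1.64 on EHO replicate 3, against -2.23 to -1.04 in control. The mean level of the 6 marker probes was 2.32 to 3.003 over the EHO arrays and 1.53 to 2.20 over TOTM, against 1.88 to 2.44 over control. Nr2f2 was called lower with TOTM (-1.10, adjusted p = 0.0197). The part of these cells in the Cdkn1b values was not tested.

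Of 6 probes of G1 cyclins and their kinases 1 was called higher with EHO, where 4.77% of all probes were called higher. Ccnd3, a D cyclin, was at 2.04, 1.71, 1.49 and 1.57 with EHO, against 0.94, 1.04, 1.43 and 1.25 in control, with no overlap (0.54 ± 0.19, adjusted p = 0.0385). The other 5 probes of the group (Ccnd1, Ccnd2 and Cdk4) differed by 0.04 to 0.52 and were not called. Among S phase and mitotic cyclins and their kinases, none of 13 probes was called, by limma, and their differences ran from -0.39 to 0.31. Cdc2a, the mitotic kinase Cdk1, was at 4.94, 4.61, 4.30 and 4.57 with EHO, against 4.47, 4.78, 4.61 and 4.41. Ccnb2, a B cyclin, differed by 0.07 ± 0.13 and Ccnb1 by -0.31 and -0.04 on its 2 probes.

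Top2a, the topoisomerase that untangles sister chromatids, rose on both probes with EHO. A_43_P12148 was at 1.54, 0.92, 1.41 and 0.82 with EHO, against 0.26, 0.38, 0.90 and 0.72 in control (0.60 ± 0.19, adjusted p = 0.0313). A_44_P531770 was at 3.14, 2.57, 2.87 and 2.51, against 1.93, 2.29, 2.55 and 2.45 (0.47 ± 0.16, adjusted p = 0.0369). On both probes EHO replicate 4 lay below control replicate 3, so the groups overlapped. Kinases of transcription were also called: Cdc2l5 (Cdk13) by 0.43 ± 0.12 and Cdc2l6 A_44_P929695 (Cdk19) by 0.41 ± 0.12, with adjusted p of 0.0239 and 0.0274 and no overlap with control. The other Cdc2l6 probe, A_44_P513577, differed by -0.50 ± 0.21 from control and by -0.35 from DEHP, neither called.

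Of the 14 lower calls, 4 were among the 13 tested probes of replication genes. This share is close to the 28.7% of all probes called lower with EHO. Mcm10, which joins the helicase at the fork, was well above background on 0 of 4 EHO arrays and 3 of 4 control arrays. It was at least 1.18-fold lower with EHO (limma adjusted p = 0.0184), and the measured levels were -4.73, -4.88, -3.06 and -3.07, against -2.08, -3.36, -2.41 and -2.10. EHO replicates 1 and 2 were the lowest and replicates 3 and 4 fell inside the control range. Cdc7, the kinase that fires origins, fell by 0.50 ± 0.13 (adjusted p = 0.0203), Mcm4 A_44_P511519 by 0.42 ± 0.15 (0.0433) and the loader Cdc6 by 0.30 ± 0.11 (0.0479). These last 3 turned to 0.10, 0.17 and 0.30 above control under median scaling. Mcm2, Mcm5, Mcm6 and Mcm7 differed by 0.06 to 0.54 and were not called, and by 0.05 to 0.35 without control replicate 2, where Mcm5 was 0.08 in place of 0.44.

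The INK4 inhibitor Cdkn2a, whose locus encodes p16 and ARF, fell and kept its sign throughout. It was at -1.73, -0.96, -1.49 and -1.09 with EHO, against -0.42, 0.13, -0.31 and -0.69 in control, with no overlap. The difference was -0.99 ± 0.25 (adjusted p = 0.0173), and -0.97 without EHO replicates 1 and 2 (adjusted p = 0.102). Cdkn2b next to it differed by -0.60 ± 0.23 (adjusted p = 0.051), with EHO at -2.63, -1.64, -1.30 and -1.27, against -0.92, -1.33, -1.16 and -1.02. Cdkn2c differed by -0.36 and Cdkn2d by 0.23, neither called.

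Among mitotic genes the probes of 1 gene disagreed. Bub1b A_44_P503490, for a spindle checkpoint kinase, was well above background on no EHO array and 3 of 4 control arrays and was at least 1.22-fold lower (adjusted p = 0.0298). The 2 brighter Bub1b probes differed by -0.03 and -0.23 and were not called. Cdc27, a subunit of the anaphase-promoting complex, was -0.87 ± 0.32 on A_44_P183220 (adjusted p = 0.0483), well above background on 2 of 4 EHO arrays, and 0.43 on its brighter probe. Aurkb, the kinase of the chromosomal passenger complex, was at 0.81, 0.70, 0.90 and 0.83 with EHO, against 1.13, 1.60, 1.08 and 1.07 (-0.41 ± 0.13, adjusted p = 0.0274), with no overlap. Without control replicate 2, the highest control array here, the Aurkb difference was -0.28, and under median scaling it was 0.18. Plk1, Bub1 and Cdc20 differed by -0.14 to 0.14 and were not called.

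The remaining lower calls lay outside the division cycle proper. Both Cdc73 probes fell, at -1.80, -1.74, -1.25 and -1.14 against -0.41, -0.49, -0.92 and -0.64 on A_44_P176494 (-0.87 ± 0.20, adjusted p = 0.0133), and by 0.81 ± 0.19 on A_43_P22746 (0.015). Cdk5, a kinase best known from neurons, fell by 0.43 ± 0.10 (adjusted p = 0.0127) and its activator Cdk5r1 by 1.12 ± 0.38 (0.0372), Cdk5r1 being well above background on 2 of 4 EHO arrays. Cdk10 fell by 0.28 ± 0.10 (0.043) and the stress kinase Plk3 A_44_P543283 by 0.69 ± 0.25 (0.0451), while its second probe differed by 0.09. Of the 14 lower calls, 8 changed sign under at least 1 alternative and 5 were well above background on fewer than 4 EHO arrays. The groups did not overlap on 12 of the 88 members (13.6%, against 16.2% of all probes), nor on 10 of the 21 called. None of the 7 higher calls changed sign under the 36 or 37 alternatives that gave each a value, though each lost its call under some.

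**Figure D4:**
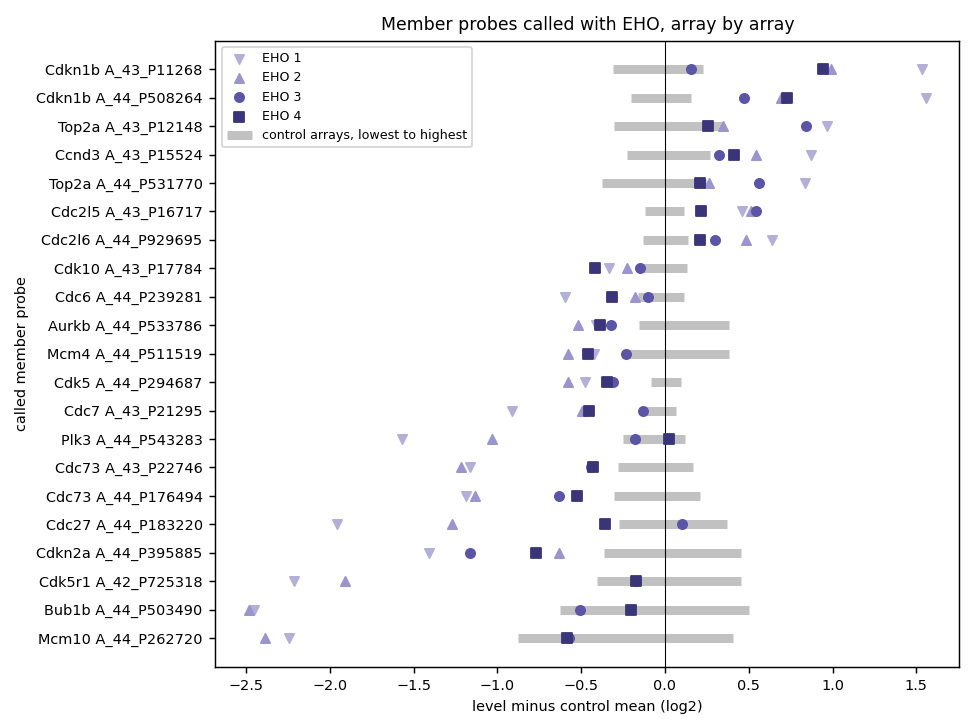
Level minus control mean (log2) of the 21 called member probes on each EHO array, with the grey bar spanning the control arrays from lowest to highest. For Mcm10, Bub1b and Cdk5r1 EHO replicates 1 and 2 lie far below the control bar and EHO replicates 3 and 4 within it.

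The brightness of a probe went with its difference on the EHO arrays. Over the 29 dimmest members the median difference from the control mean was -0.41 and -0.48 on EHO replicates 1 and 2 and -0.13 and -0.20 on replicates 3 and 4. Over the 30 brightest it was 0.22 and 0.16 on replicates 1 and 2, and -0.05 and -0.04 on replicates 3 and 4. So the spread between dim and bright members was wider on replicates 1 and 2. The part of this pattern in the calls was not tested beyond leaving those arrays out.

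**Figure D5:**
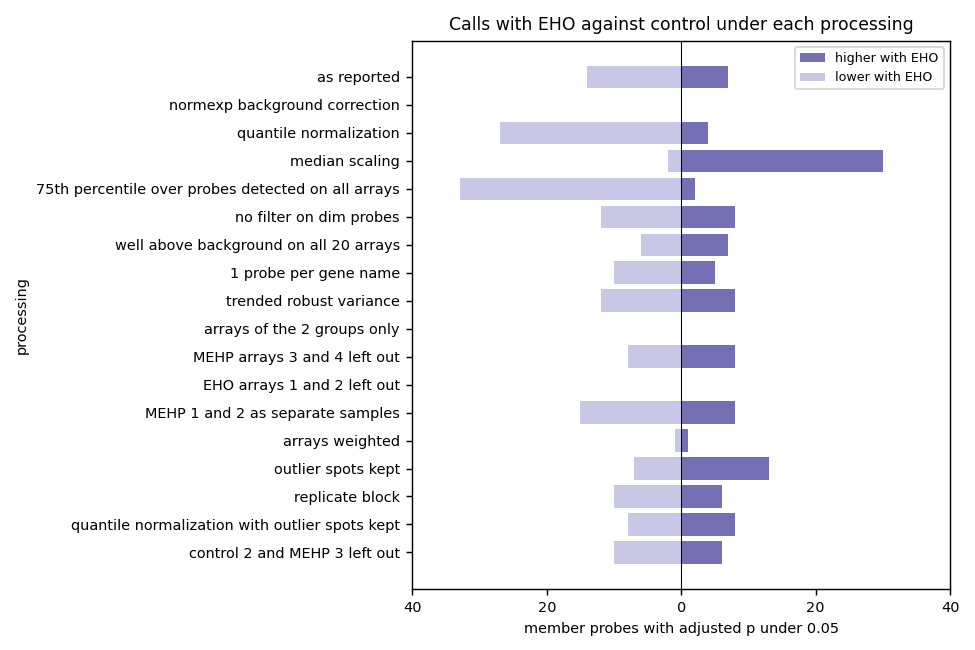
Number of member probes with a limma adjusted p under 0.05 for EHO against control (bars to the right, higher with EHO; to the left, lower) under the reported processing and 17 alternatives. The split runs from 30 higher and 2 lower under median scaling to 2 higher and 33 lower under the percentile over detected probes, and 3 alternatives give no call.

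DEHP and its monoester MEHP did not differ by test on any member. Of 90 members 0 were called by limma, where 1.07% of all probes were called (1.07% higher and 0.00711% lower), and 4 had an unadjusted p under 0.05. The smallest p belonged to Cdk10, at -0.34, -0.29, -0.45 and -0.17 with MEHP, against -0.07, 0.22, 0.00 and 0.04 with DEHP (-0.36 ± 0.11, adjusted p = 0.243). Cdk2ap1, an inhibitor of Cdk2, was 0.34 ± 0.13 higher with MEHP (adjusted p = 0.626), Cdc6 -0.28 ± 0.12 (0.768) and Ccna2 A_43_P15962 0.34 ± 0.15 (0.789). For Cdkn1c A_44_P374618 the difference was -0.26, with a 95% interval of -0.78 to 0.25. The groups did not overlap on 7.78% of members and 9.05% of all probes. The intervals of 53 members lay within 1.5-fold and of 86 within 2-fold, which does not show that the compounds act alike.

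TOTM carries the same 2-ethylhexyl ester chains on a benzene ring with one more ester group, and no member differed by test between TOTM and DEHP. None of 90 members was called by limma, as was 0% of all probes, and 4 had an unadjusted p under 0.05. The groups did not overlap on 6.67% of members and 4.81% of all probes. Ccnb3 was at 0.21, 0.49, 0.78 and 0.32 with TOTM, against -0.83, 0.36, -0.80 and -0.90 with DEHP (0.99 ± 0.29, 95% interval 0.39 to 1.60, adjusted p = 0.724). DEHP replicate 2 was again the array that lay inside the other group's range. Cdkn1b A_44_P508264 differed by -0.48 ± 0.18, Ccnd2 by -0.39 ± 0.15 and Cdc2l6 by -0.32 ± 0.12, each with an adjusted p of 0.9999. For Cdkn1c A_44_P374618 the difference was 0.22, with an interval of -0.26 to 0.69.

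EHO and DEHP differed on 13 of 90 members (14.4%), 8 higher and 5 lower with EHO, where 6.65% of all probes were called, 3.76% higher and 2.89% lower. The groups did not overlap on 21.1% of members and 14% of all probes. The Cip/Kip inhibitors gave 4 of the 8 higher calls. Cdkn1c A_44_P374618 was at 6.22, 5.87, 5.63 and 5.67 with EHO, against 4.80, 5.51, 4.69 and 4.27 with DEHP, with no overlap, a 2.04-fold higher level (1.03 ± 0.23, limma adjusted p = 0.0152). Cdkn1c A_44_P374620 was 1.04 ± 0.21 higher (0.0115). Cdkn1b was 0.96 ± 0.18 and 0.94 ± 0.25 higher on its 2 probes, with adjusted p of 0.00693 and 0.034. Top2a on both probes, Cdc2l5 and Cdc2l6 A_44_P929695 made up the other higher calls, by 0.53 to 0.71.

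The 5 lower calls against DEHP were Mcm10, Cdc6, Cdk10, Cdk5 and Cdk105 A_43_P13270. Mcm10 was at least 1.11-fold lower, and the others fell by 0.37 to 0.43. Without EHO replicates 1 and 2 the call on Cdkn1b A_44_P508264 alone was left, with 0.70 and an adjusted p of 0.0337. The Cdkn1c differences were then 0.83 and 0.87, with adjusted p of 0.141 and 0.0971. The count was 3 without EHO replicate 1, 7 without EHO replicate 2, 28 without EHO replicate 3 and 27 without EHO replicate 4. It was 5 or 6 without any single DEHP array, and 8 without MEHP replicate 4 or without TOTM replicate 3. This comparison and the one with control use the same EHO arrays.

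Genes of the same processes outside the list were counted in the same fit. Of 37 tested probes of other replication genes, 0 were called by limma with DEHP, MEHP or TOTM and 7 were lower with EHO (18.9%, against 28.7% of all probes). Among them were 2 of 3 probes of Rrm1 (-0.87 and -0.74, the other at -0.20), 1 of 2 of Rrm2 (-0.69, the other at -0.17), the ribonucleotide reductase subunits, and Fen1 (-0.52). Of 29 probes of other mitosis genes none was called with DEHP, MEHP or TOTM. With EHO 5 were lower (17.2%), including Nusap1 (-0.89), and Prc1 was higher (0.48). A dim probe of the kinesin Kif11 was also called lower, while its brighter probe differed by -0.09. Their medians with EHO were -0.12 and -0.09, against -0.25 for all probes.

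Of 22 probes of E2F, Rb and related regulators, 1 was called with MEHP and none with DEHP or TOTM. The MEHP call was a dim Mycn probe that passed the filter on low signal only through the MEHP arrays, so its call supports nothing. The brighter Mycn probe was at 0.96, 0.93, 0.35 and 0.48 with MEHP, against 0.86, 0.63, 0.68 and 0.49 in control. Gadd45b (0.78) was called higher with EHO, where 4.77% of all probes were called higher. With EHO 3 were called lower (13.6%, against 28.7% of all probes). These were E2f5 (-0.72), 1 of 2 Mdm2 probes (-0.63, the other at -0.16) and E2f6 (-0.41). E2f5 was at -2.39 and -2.41 on EHO replicates 1 and 2. On EHO replicates 3 and 4 it was at -1.564 and -1.428, inside the control range of -1.593 to -1.025.

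The authors' deposited table lists probes with p-values of up to 0.00999, with the test not stated. In the authors' deposited table, 4 of 1004 probes listed for DEHP were members (0.398%). Members were 95 of 41012 probes on the array and 90 of 28129 probes kept. The authors' deposited table holds 17 members of 3827 probes in the MEHP block (0.444%) and 13 of 3298 in the TOTM block (0.394%). It holds 21 of 4210 (0.499%) in the EHO block, which is headed EH. In the authors' deposited table Cdkn1b A_44_P508264 has a signed fold of 1.83 for EHO and -1.42 for TOTM, and Cdkn1c A_44_P374618 has -1.8 for MEHP. For EHO the authors' deposited table gives 1.56 and 1.36 for the Top2a probes and -1.62 for Cdkn2a. What a positive sign means is not stated there, and the signs of the probes named here are the same as those of the differences given above. Cdc2l5 A_43_P16717 went the other way with MEHP, with a signed fold of 1.3 in the authors' deposited table and a difference from control of -0.14 here.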

How the data were processed

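Each of 20 arrays of 5 groups carried 1 litter pool, and nothing else about replicate preparation was used. The deposited intensity values are Agilent Feature Extraction 9.5.3.1 processed signals, background-subtracted and detrended within each array per the file headers, which place probes on rn4. The authors' table was deposited with a fold per probe, a signed score, and a p-value, and the test behind them is not given in the sources used here. Control and outlier spots were left out, spots of 1 probe averaged, and log2 signal taken minus the array's 75th percentile. These log2 values were computed from the deposited intensities. Probes well above background throughout at least 1 group were fitted over all 5 groups with limma 3.58.1 (R 4.3.3), with Benjamini-Hochberg adjustment over every probe tested, a threshold of 0.05 and 14 residual degrees of freedom. MEHP replicates 1 and 2 were averaged. The number of arrays limits the precision. Calls were checked on simulated data with independent noise and changes added to the DEHP arrays alone. The simulation held no dim arrays, no shift in scaling and no left-out control spots, so it does not bear on the EHO calls. The added changes were larger than any member difference from control with DEHP, MEHP or TOTM. The check therefore does not bear on the lack of calls with those compounds either. The members and gene lists were chosen with earlier results of these data known. Genes fixed in a list of core regulators were named, with every called member (at most 6 per direction in full where over 12 were called), or the 4 smallest p-values where none was. Same-numbered arrays did not vary together (16 of 40 pairs had r over 0.1), so numbers pair nothing. The alternatives are other background corrections, scalings, filters, fits and left-out arrays, and 2 of them, leaving out control replicate 2 with MEHP replicate 3 and quantile normalization with outlier spots kept, were chosen after seeing the data. One result of the regulator list is not reported here.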

Additional observations from a re-analysis of the deposited data

Results flagged for a closer look

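In 11 of 277 groups of 4 arrays, 1 array lay apart from the other 3, by the ratio of its gap to the group's range against Dixon's critical value, and chance alone gives about 1 in 20 such groups. Control replicate 2 was the array in 5 of them. It was high for Aurkb at 1.60 (others 1.07 to 1.13), for Ccna2 A_44_P527480 at 2.57 (1.99 to 2.02), and for Pcna at 2.10 (1.37 to 1.46) on A_44_P242756 and 3.62 (3.16 to 3.23) on A_44_P995132, and low for Cdc25c at -2.42 (-1.67 to -1.57). DEHP replicate 2 was high for Ccnb3 at 0.36 (-0.90 to -0.80) and for Cdkn1c A_42_P799390 at 5.42 (4.36 to 4.52). DEHP replicate 4 was high for Cdk2ap1 at 1.73 (1.49 to 1.52) and for Mcm10 at -2.52 (-2.58 to -2.58), the Mcm10 gap being small. EHO replicate 1 was high for Cdkn3 at 3.38 (2.69 to 2.73), and EHO replicate 4 for Cdkn2c at -0.71 (-1.03 to -0.98).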

How the results depend on the processing

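Of the counts of called members, those for DEHP, MEHP and TOTM against control moved from 0 to 13, 14 and 21 under quantile normalization, where 425 to 438 bright probes without a value on each control array lower the top of those arrays. With outlier spots kept under that normalization MEHP and TOTM had 1 each. MEHP also had 1 with the percentile over detected probes, with the filter on all 20 arrays, without EHO replicates 1 and 2, and with MEHP replicates 1 and 2 separate, and 9 with arrays weighted, where a weight estimate stopped before it converged. TOTM had 1 with the percentile over detected probes and 1 without EHO replicates 1 and 2. EHO against control, 21 calls, had 0 with normexp, 0 with the arrays of 2 groups, 0 without EHO replicates 1 and 2, 2 with arrays weighted, 13 with the filter on all 20 arrays, 32 with median scaling and 35 with the percentile over detected probes. EHO against DEHP, 13 calls, had 0 with normexp, 0 with the arrays of 2 groups, 1 without EHO replicates 1 and 2 and 4 with arrays weighted, and MEHP against DEHP had 2 with arrays weighted. With the replicate number as a block, which the numbers do not warrant as a pairing, MEHP against control had 1, EHO against control 16 and EHO against DEHP 8. Leaving out 1 array gave 4 to 26 for EHO against control, 3 to 28 for EHO against DEHP, 0 to 1 for MEHP against control (1 without DEHP replicate 2) and 0 to 0 for the other 4 comparisons. The subsets also use fewer samples, and the cause of each move was not tested.

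Signs turned for 10 genes. For EHO against control, median scaling gave Aurkb 0.182, Cdc6 0.295, Cdc7 0.096, Cdk10 0.312, Cdk5 0.165 and Mcm4 0.169. Quantile normalization gave Cdk5 0.041, and with outlier spots kept Cdk5 0.079, Cdc27 0.02 and Plk3 0.014, while normexp gave Cdc27 0.004. For EHO against DEHP, median scaling gave Cdc6 0.037, Cdk10 0.037 and Cdk5 0.063, and normexp gave Cdk5 0.109 and Mcm10 0.049. For TOTM against control, quantile normalization gave Cdk105 -0.076. For the named probes, 1552 of the recomputed values kept direction and side of the threshold, 398 lost the call, 24 gained it and 17 changed sign. The 1552 include probes that were not called and stayed so, and thus do not measure how stable the calls are. For EHO against control the call was kept under 7 of 35 alternatives for Cdc27 A_44_P183220, the fewest. It was kept under 33 of 36 for Cdkn1b A_44_P508264, the most. Signal near background limits Mcm10, Bub1b A_44_P503490, Cdk5r1, Cdc27 A_44_P183220 and Plk3 A_44_P543283 on the EHO arrays.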
